A study of Homo sapiens with 8 samples.

Results

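Integrated stress response genes were followed in a map of nuclear speckle proximity made in the renal cancer line 786-O, which derives from a human clear cell carcinoma, lacks functional VHL and keeps HIF-2α active at normal oxygen. The 8 genes were taken by name (ATF4, DDIT3, TRIB3, ASNS, CHAC1, SESN2, PPP1R15A and ATF3), and a window was assigned to a gene when it held the gene's transcription start site on hg19. This gave 72 windows of 100 kb and 72 windows of 50 kb, or 9 of each size per gene, 144 of the 835254 windows in the series. The tested cells received 2 µM PT2399, a small molecule that blocks the binding of HIF-2α to ARNT, for 3 h, and the control cells received the DMSO vehicle for 3 h. The series holds 2 SON pulldowns and 2 inputs of PT2399 cells and 2 SON pulldowns and 2 inputs of DMSO cells. All came from the 1 cell line, kept at atmospheric oxygen in the same medium. Titles were used to assign libraries, although 4 of the 8 have an antibody or treatment field that differs from the title.

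The integrated stress response is a shared answer to amino acid shortage, misfolded protein, haem shortage and viral RNA. Stress kinases phosphorylate the translation factor eIF2α, which slows most protein synthesis and at the same time favours translation of the transcription factor ATF4, and ATF4 then switches on genes of amino acid supply, redox balance and cell death. Nuclear speckles are bodies rich in splicing factors, and active, gene-dense chromatin tends to lie close to them. SON is a core speckle protein, and in SON TSA-seq a peroxidase-linked antibody deposits biotin on nearby DNA, so that a higher pulldown signal means chromatin closer to speckles.

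The deposited values are log2 SON concentrations, as 1 authors' value per treatment and window. Values per library were not analysed here, so no depth, standard deviation or n goes with any level. The only measures of error are the p-value and the FDR in the authors' deposited tables. Whether the 2 replicates came from separate cultures is not in the labels, so both may reflect technical spread only. Changes are PT2399 minus DMSO. The table columns are named for treatment and control and name no library, so reading them as the PT2399 and DMSO pulldowns is an inference, and the sign of every change rests on it. The 9 windows of a gene overlap by most of their length and are not replicates. The genes were proposed with these values in view, so counts and changes below describe them and test nothing. Windows at or above a log2 level of 2 with PT2399 and with DMSO were called measured. The median change over all measured 100 kb windows was -0.13 (quartiles -0.34 and 0.08), and 67.5% of them were lower with PT2399. The origin of this general shift was not tested, and mean changes of the measured genes are also given relative to it.

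Of the 8 genes, 6 had high SON signal when ranked over all windows, and 1 sat at the edge of a stretch with no signal. In 100 kb windows, ATF4, the transcription factor at the centre of the response, had PT2399 levels of 10.79, 10.96 and 11.01 (lowest, median and highest of 9 windows), against DMSO levels of 11.04, 11.15 and 11.19. DDIT3, which encodes the death-promoting factor CHOP, had 10.62, 10.84 and 10.90 with PT2399, against 10.99, 11.07 and 11.15 with DMSO. PPP1R15A, which encodes GADD34, the phosphatase subunit that ends the response by dephosphorylating eIF2α, had 10.71, 10.77 and 10.97 with PT2399, against 10.85, 10.96 and 11.17 with DMSO. These 3 genes had the highest levels, and their ranges overlapped in each treatment, so their order is not resolved. The ranges of PT2399 and DMSO windows nearly met at ATF4 (11.01 and 11.04), were apart at DDIT3 and overlapped at PPP1R15A. These ranges span overlapping windows and are no measure of error. How often such ranges part at other loci was not counted. Between 97.5% and 98.6% of all 100 kb windows had a lower mean level than the windows of these 3 genes. Only 32.4% of all 100 kb windows were measured, so this ranking is mostly against windows that were not.

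The next 3 genes lay somewhat lower. TRIB3, a pseudokinase that dampens AKT signalling and ATF4 itself, had 10.05, 10.15 and 10.26 with PT2399, against 10.26, 10.47 and 10.54 with DMSO. SESN2, a leucine sensor that restrains mTORC1, had 10.24, 10.31 and 10.36 with PT2399, against 10.30, 10.45 and 10.56 with DMSO. CHAC1, which degrades glutathione, had 9.42, 9.71 and 10.15 with PT2399, against 9.61, 9.97 and 10.24 with DMSO. The median of TRIB3 was below that of SESN2 with PT2399 and just above it with DMSO, and their ranges overlapped in both. CHAC1 had the lowest median of the 3 genes, and its range overlapped that of TRIB3 with PT2399 but not with DMSO.

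ATF3, a stress-induced transcription factor, had 5.70, 7.25 and 7.44 with PT2399, against 7.33, 7.65 and 7.80 with DMSO, so its windows were lower than those of the 6 genes above. Between 74.4% and 78.5% of all windows had a lower mean level, most of them not measured. This does not place ATF3 high among measured windows, of which 6944 had a mean level of 7 to 7.5 and 8768 one of 10 to 10.5. ASNS, asparagine synthetase, was at the floor of the tables in 5 of its 9 windows in both treatments, where PT2399 is listed at -0.11 and DMSO at -0.07. These are the lowest values of each treatment and carry no signal.

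**Figure D1:**
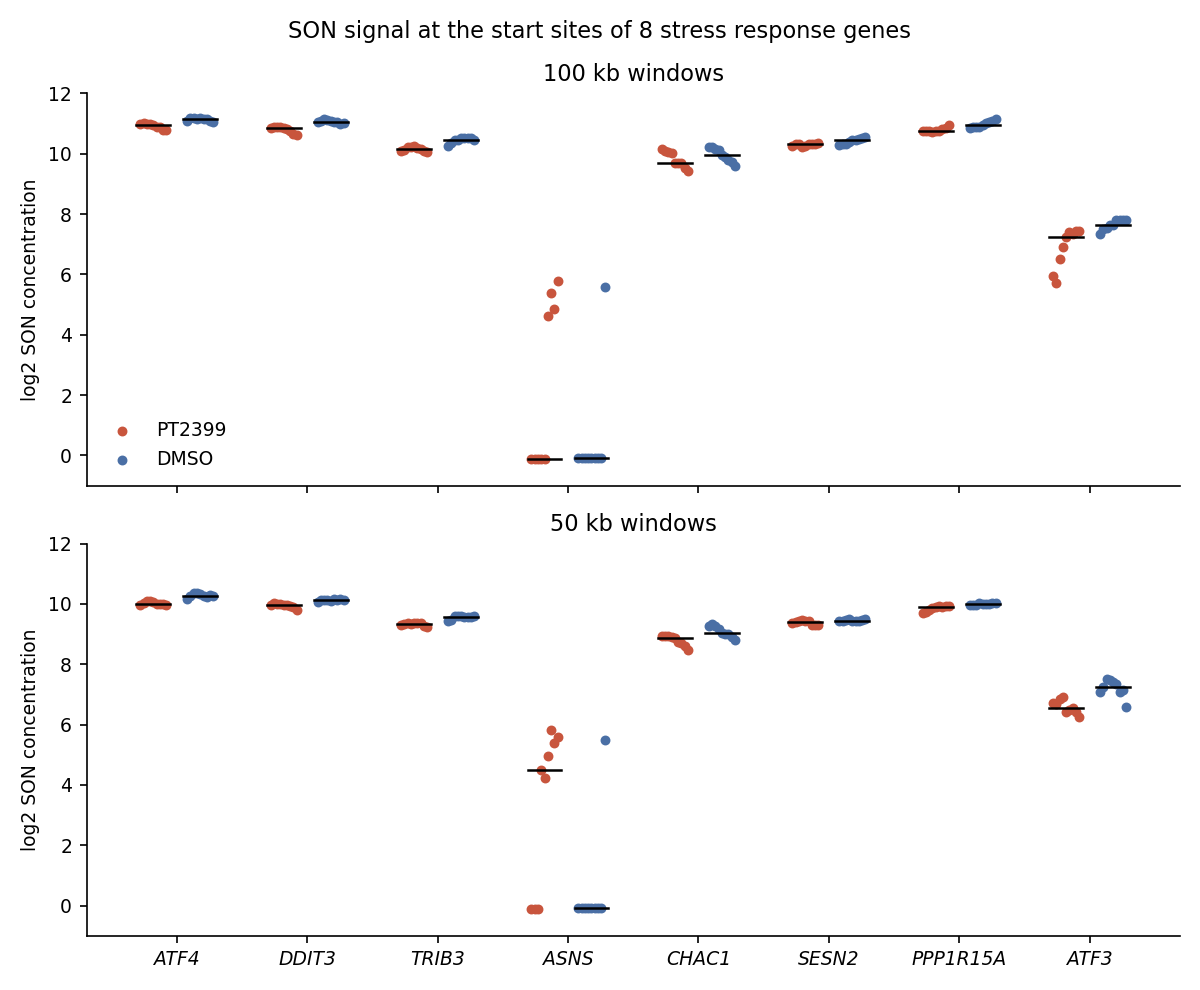
Log2 SON concentration (y axis) of every window that holds the start site of each gene (x axis), for 100 kb windows above and 50 kb windows below. Each point is the authors' value for 1 window, PT2399 left of DMSO, ordered by position, and bars are medians over 9 windows; 6 genes lie near 10 or 11 at 100 kb, ATF3 lies lower, and ASNS is split between the floor and values of 4.61 to 5.77.

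At ATF4, DDIT3 and TRIB3 the SON signal was lower with PT2399 in all 9 windows of 100 kb, and some windows of each passed an FDR of 0.01 in the authors' deposited tables. The mean change was -0.21 at ATF4, -0.27 at DDIT3 and -0.30 at TRIB3, so that PT2399 levels were 86.4%, 82.8% and 81.0% of DMSO levels on the linear scale. Counted by that FDR, 3 windows of ATF4, 3 of DDIT3 and 2 of TRIB3 were lower, 8 of 72 member windows (11.1%), and 0 were higher. Over all 100 kb windows the same rule called 0.614% lower and 0.139% higher, and over measured windows 1.55% lower and 0.0853% higher. The share called differed with the level, and of windows with the same mean level (within 0.25) 5.57% were called lower for ATF4, 4.86% for DDIT3 and 4.05% for TRIB3. A lower signal was common among these same-level windows. Their upper quartile of change averaged -0.065 for ATF4, -0.068 for DDIT3 and -0.059 for TRIB3. All 3 genes are in the authors' deposited list of genes at lower 100 kb windows, and 0 of the 8 are in the 50 kb list.

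The change was larger in windows that reached toward higher coordinates at each of these 3 genes. The DDIT3 window with the lowest FDR, on chromosome 12 at 57910001 to 58010000, had 10.62 with PT2399 and 11.02 with DMSO, a change of -0.40 (FDR of 5.79e-05 by the authors' deposited table). Its standard error, worked back from the p-value of the table, was 0.0764, which gives a 95% interval of -0.55 to -0.25. The DDIT3 window at the other end, at 57820001 to 57920000, changed by -0.23 (FDR of 0.0415 by the authors' deposited table). For TRIB3, the window on chromosome 20 at 350001 to 450000 had 10.09 with PT2399 and 10.52 with DMSO, a change of -0.43 with an interval of -0.62 to -0.24 (FDR of 0.00184 by the authors' deposited table). At the other end, the window at 270001 to 370000 changed by -0.18 (FDR of 0.262 by the authors' deposited table). The ATF4 window with the lowest FDR, on chromosome 22 at 39900001 to 40000000, had 10.79 with PT2399 and 11.08 with DMSO, a change of -0.29 with an interval of -0.43 to -0.15 (FDR of 0.0038 by the authors' deposited table). At the other end, at 39820001 to 39920000, the change was -0.09 (FDR of 0.441 by the authors' deposited table). These windows were picked by their FDR or position, and the intervals cover 1 window each.

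Relative to the general shift the changes at these 3 genes were smaller, and none of their windows was called. After subtraction of the median of measured windows from each set, the mean change was -0.08 at ATF4, -0.15 at DDIT3 and -0.18 at TRIB3. The same kind of standard error was then used, with Benjamini-Hochberg adjustment over the measured windows of a set. By this rule 0 of the 64 measured member windows passed 0.01, beside 0.161% of all measured windows called lower and 0.109% called higher. Member windows that were not measured, all of them at ASNS, were not tested. The lowest adjusted p was 0.048 at DDIT3, 0.116 at TRIB3 and 0.373 at ATF4. This scaling was chosen after seeing the data, and with the same error but no subtraction 7 windows were called. At 50 kb 0 of the 64 measured member windows passed with or without the subtraction. After it, 0.0403% of all measured windows were called lower and 0.0174% higher.

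The promoters of the called genes are shown with those of ASNS and CHAC1, which hold the element that ATF4 is known to bind. RefSeq has 250 bases before the most upstream listed start of all 8 genes, on GRCh38.p14, a build that was not compared with the hg19 windows. The stretches are chr22:39520309-39520558 (+ strand) for ATF4, chr12:57520518-57520767 (- strand) for DDIT3, chr20:381045-381294 (+ strand) for TRIB3, chr7:97872409-97872658 (- strand) for ASNS and chr15:40953221-40953470 (+ strand) for CHAC1. They run 5′ to 3′, and capitals mark matches on either strand to TGATGNAA, the core of the C/EBP-ATF response element, to TGACGTCA, the cAMP response element, and to ACGTG or GCGTG, the cores of the hypoxia response element.
ATF4: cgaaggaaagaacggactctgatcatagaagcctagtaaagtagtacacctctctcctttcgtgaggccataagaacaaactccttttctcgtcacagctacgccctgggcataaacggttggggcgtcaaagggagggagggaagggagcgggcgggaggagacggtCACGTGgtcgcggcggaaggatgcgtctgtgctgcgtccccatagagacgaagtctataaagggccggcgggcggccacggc
DDIT3: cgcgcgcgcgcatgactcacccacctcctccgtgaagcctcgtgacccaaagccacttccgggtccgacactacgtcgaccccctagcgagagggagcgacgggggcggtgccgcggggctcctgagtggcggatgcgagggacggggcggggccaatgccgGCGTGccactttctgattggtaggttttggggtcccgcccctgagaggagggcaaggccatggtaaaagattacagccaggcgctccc
TRIB3: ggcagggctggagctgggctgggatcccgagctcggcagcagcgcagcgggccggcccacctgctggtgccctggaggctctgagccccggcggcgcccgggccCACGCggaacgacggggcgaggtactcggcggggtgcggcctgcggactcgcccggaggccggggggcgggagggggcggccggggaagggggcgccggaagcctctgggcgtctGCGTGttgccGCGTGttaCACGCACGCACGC
ASNS: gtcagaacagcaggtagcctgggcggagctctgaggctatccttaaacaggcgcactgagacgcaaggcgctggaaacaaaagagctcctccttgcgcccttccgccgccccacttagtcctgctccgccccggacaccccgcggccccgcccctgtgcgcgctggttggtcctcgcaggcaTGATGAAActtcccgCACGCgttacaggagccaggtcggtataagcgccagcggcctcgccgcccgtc
CHAC1: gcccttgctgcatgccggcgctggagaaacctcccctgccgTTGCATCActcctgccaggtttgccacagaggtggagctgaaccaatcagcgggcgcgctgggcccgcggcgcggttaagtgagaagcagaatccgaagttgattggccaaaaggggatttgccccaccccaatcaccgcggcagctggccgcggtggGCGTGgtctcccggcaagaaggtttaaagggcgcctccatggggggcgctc
TGATGNAA was found in 3 of the 8 stretches, those of ASNS, CHAC1 and ATF3, and in 3.19% of the 27305 promoter stretches of this length in the table. In ASNS the match began 68 bases before the start, in CHAC1 it lay on the opposite strand with its first printed base 209 before the start, and in ATF3 it began at 191. ATF3, ATF4, DDIT3 and ASNS have 2 promoter entries each, and TRIB3 has 3. The most upstream entry was used, and its start may differ from the start that the windows hold. TGACGTCA was found in PPP1R15A alone of the 8, and in 1.75% of all stretches. ACGTG was found in ATF4 alone, where the matches on both strands overlap in 1 palindrome, and in 18.6% of all stretches. GCGTG was found in 5 of the 8, with 6 matches in TRIB3, and in 31.9% of all stretches. SESN2 held 0 of the 4 motifs. A match is a run of letters and no shown binding site, and windows of 50 kb or more cannot resolve a promoter.

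CHAC1, SESN2 and PPP1R15A were lower with PT2399 in 26 of their 27 windows of 100 kb, and 0 windows passed an FDR of 0.01 in the authors' deposited tables. The mean change was -0.18 at PPP1R15A, -0.16 at CHAC1 and -0.12 at SESN2, close to the -0.13 of measured windows as a whole. Most windows of the same level were lower too, with upper quartiles that averaged -0.070 for PPP1R15A, -0.039 for CHAC1 and -0.060 for SESN2. PPP1R15A had its lowest FDR on chromosome 19 at 49360001 to 49460000, where the level was 10.86 with PT2399 and 11.10 with DMSO, a change of -0.24 with a 95% interval of -0.38 to -0.10 (FDR of 0.0196 by the authors' deposited table). For CHAC1 the lowest FDR was on chromosome 15 at 41200001 to 41300000, with 9.70 for PT2399 and 9.97 for DMSO, a change of -0.27 with an interval of -0.54 to -0.00148 (FDR of 0.237 by the authors' deposited table). SESN2 had 10.36 with PT2399 and 10.56 with DMSO on chromosome 1 at 28580001 to 28680000, a change of -0.20 with an interval of -0.38 to -0.02 (FDR of 0.196 by the authors' deposited table). In its window at 28520001 the levels were equal at 10.32. Recentred mean changes were -0.06 at PPP1R15A, -0.03 at CHAC1 and 0.01 at SESN2. The positive value at SESN2 was far smaller than its median implied standard error of 0.0917, so its direction is not resolved.

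ATF3 had the largest negative mean change of the 8 and the least precise one among the measured genes. Its windows of 100 kb changed by -1.81 to -0.36, with a mean of -0.77 as deposited and -0.64 relative to the general shift, and all 9 were lower with PT2399. Implied standard errors at ATF3 ran from 0.494 to 0.889, against 0.0654 to 0.0723 at ATF4. The window with the lowest FDR, on chromosome 1 at 212710001 to 212810000, had 5.70 with PT2399 and 7.51 with DMSO, a change of -1.81 with a 95% interval of -3.34 to -0.28 (FDR of 0.159 by the authors' deposited table). The 5 windows that reached farthest toward higher coordinates changed by -0.46 to -0.36, with -0.37 in the last, at 212780001 to 212880000, where PT2399 stood at 7.43 and DMSO at 7.80 (FDR of 0.916 by the authors' deposited table). With 0 windows called, a difference at ATF3 was not detectable at this precision.

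At ASNS the only 100 kb window measured in both treatments, on chromosome 7 at 97500001 to 97600000, had 5.77 with PT2399 and 5.60 with DMSO (FDR of 0.98 by the authors' deposited table). In 3 further windows PT2399 stood at 4.61, 5.40 and 4.87 while DMSO was listed at the floor of -0.07, and the lowest FDR among them was 0.177 in the authors' deposited table. The implied standard error of these windows was 2.47 to 2.50, larger than the whole change at any other of the 8 genes. In 50 kb windows DMSO was at the floor in 8 of 9 windows and PT2399 in 3 of 9, and the lowest FDR was 0.146 in the authors' deposited table. No fold is given against a level at the floor, and no gain of signal at ASNS passed the FDR.

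Set beside windows of the same mean level in the same set of 100 kb windows, 6 of the 7 measured genes had a more negative mean change than the median of such windows. The difference was -0.16 at TRIB3, -0.14 at DDIT3, -0.09 at ATF4, -0.05 at PPP1R15A and -0.01 at CHAC1, and it was 0.02 at SESN2 and -0.64 at ATF3. Same-level windows had medians of -0.14 to -0.12 for these 7 genes, with 470 to 1007 windows in each band. All 9 DDIT3 windows, 8 of TRIB3, 6 of ATF4, 4 of PPP1R15A, 4 of ATF3, 1 of CHAC1 and 0 of SESN2 lay below the lower quartile of their band. For ATF3 that quartile averaged -0.61 and for ATF4 -0.19. At 50 kb the difference from same-level windows was -0.15 at CHAC1, -0.14 at ATF4, -0.09 at TRIB3, -0.05 at DDIT3, -0.02 at PPP1R15A, 0.07 at SESN2 and -0.50 at ATF3. At this size 8 windows of ATF4, 6 of ATF3, 5 of CHAC1, 4 of DDIT3, 3 of TRIB3, 2 of PPP1R15A and 0 of SESN2 lay below the lower quartile. The order of the genes thus differed between the window sizes, and of the 7 genes only ATF3 moved by less than 1.5 times. The width of the bands is a spread between windows and not an error between replicates.

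**Figure D2:**
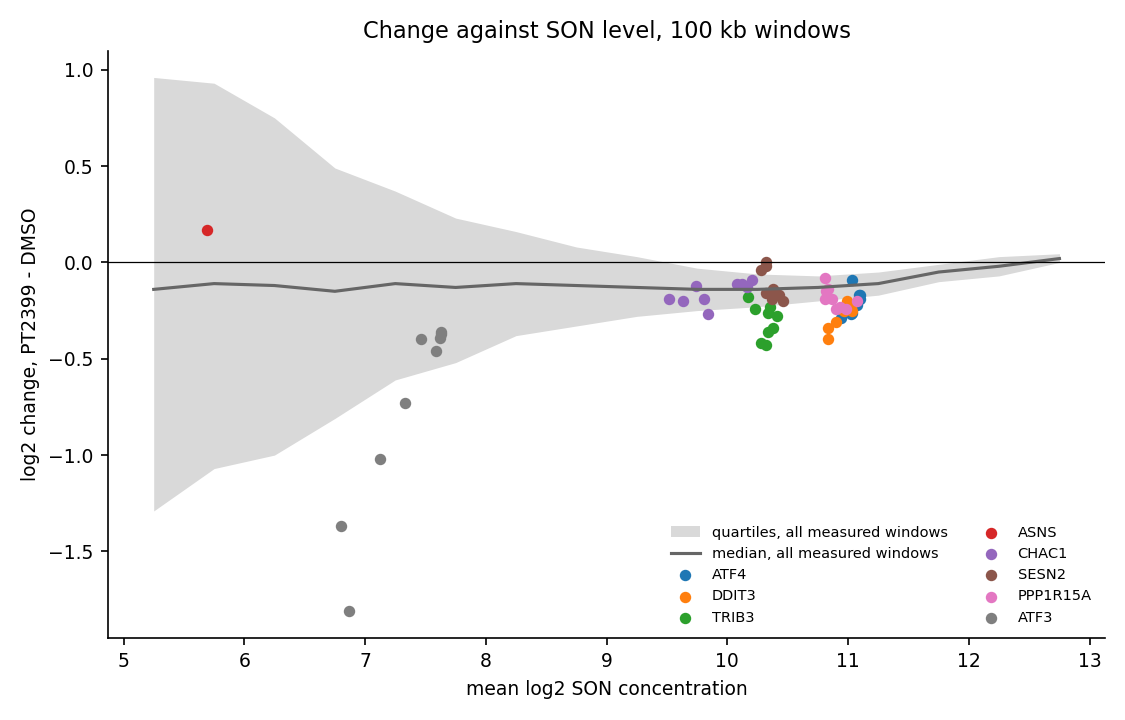
Log2 change, PT2399 minus DMSO (y axis), against mean log2 SON concentration (x axis) for measured 100 kb windows of the 8 genes (coloured points), over the median and quartiles of all measured windows from a level of 5 upward in steps of 0.5 (grey line and band). Over this range the band narrows with rising level, and the DDIT3 and TRIB3 points reach -0.40 and -0.43, below quartiles of -0.20 and -0.07 for levels of 10.5 to 11 and of -0.23 and -0.06 for levels of 10 to 10.5.

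In 50 kb windows the measured genes were again lower with PT2399 in all 63 windows, and 0 of the 72 member windows passed an FDR of 0.01, against 0.176% of all 50 kb windows called lower and 0.0503% called higher. Over measured 50 kb windows these shares were 0.357% lower and 0.0291% higher. Of all measured 50 kb windows 64.3% were lower, with a median change of -0.12. Being lower was more common at the levels of the measured genes other than ATF3. The upper quartile of same-level windows averaged -0.05 to -0.01 for these genes, and 0.31 for ATF3. Mean changes were -0.25 at ATF4, -0.17 at DDIT3, -0.22 at TRIB3, -0.29 at CHAC1, -0.07 at SESN2, -0.14 at PPP1R15A and -0.62 at ATF3. Relative to the general shift they were -0.13 at ATF4, -0.05 at DDIT3, -0.10 at TRIB3 and -0.17 at CHAC1. They were 0.05 at SESN2, -0.02 at PPP1R15A and -0.50 at ATF3. The value at SESN2 was again smaller than its median implied standard error, here 0.134. The lowest FDR of the 8 genes at this size was 0.0478 at ATF4, on chromosome 22 at 39915001 to 39965000, in the authors' deposited table. There PT2399 stood at 9.97 and DMSO at 10.27, a change of -0.30 with a 95% interval of -0.48 to -0.12. CHAC1 thus had a larger mean change at 50 kb than at 100 kb, and DDIT3 and TRIB3 had smaller ones. The smaller windows had implied standard errors with medians of 0.0981 at ATF4 and 0.104 at DDIT3, against 0.0678 and 0.0745 at 100 kb. Both sizes come from the same libraries.

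The called stretches extended beyond the start sites, to both sides at DDIT3 and mainly toward higher coordinates at TRIB3 and ATF4. Around DDIT3, 30 of the 90 windows of 100 kb centred within 500 kb were called lower, in the authors' deposited tables. Over all 100 kb windows 0.614% were called lower, over measured windows 1.55%, and at the level of the DDIT3 start site windows 4.86%. The called windows around DDIT3 merged into a stretch at 57730001 to 58050000, which runs from -184.5 kb to 135.5 kb relative to the start site. Another lay at 57400001 to 57660000, which ends at -254.5 kb and was followed only as far as windows centred within 500 kb. The second had a best window of 10.97 with PT2399 and 11.32 with DMSO, a change of -0.35. At 50 kb the nearest called stretch to DDIT3 lay at 57930001 to 58010000, starting 15.5 kb above the start site, with 9.40 for PT2399 and 9.97 for DMSO in its best window. The DDIT3 start therefore lay inside a called stretch at 100 kb and beside one at 50 kb.

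Around TRIB3, 9 of 74 windows were called lower, in a stretch at 350001 to 740000 that runs from -11.5 kb to 378.5 kb relative to the start site. At the level of the TRIB3 start site windows 4.05% of windows were called lower. The median change of the measured windows within 500 kb of TRIB3 was -0.41, and all 74 were lower with PT2399. The gene lies near the end of the short arm of chromosome 20, which is why fewer windows were available. The signal peaked near the start site, with PT2399 medians of 8.29 below and 9.16 above it at 100 kb, against DMSO medians of 8.81 below and 9.62 above. At 50 kb 1 window was called, at 400001 to 450000, with 8.78 for PT2399 and 9.47 for DMSO, and the FDR was 0.00386 in the authors' deposited table.

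Around ATF4 the called stretch was shorter, at 39870001 to 40050000, with 6 of 90 windows called. It ends 132.5 kb above the start site, and no called window was centred below the start site. At the level of the ATF4 start site windows 5.57% of windows were called lower, and 6 of 90 is near that share. The median change within 500 kb of ATF4 was -0.15, close to that of measured windows as a whole. Within 500 kb of ASNS, CHAC1, SESN2, PPP1R15A and ATF3, 0 windows of either size were called in either direction. At the level of their start site windows, the 100 kb share called lower ran from 0.426% for ASNS to 4.93% for PPP1R15A. Of all 50 kb windows 0.176% were called lower. Around CHAC1 the measured windows had a median change of -0.04, and 52 of 90 were lower. SESN2 and PPP1R15A each had a median of -0.14 over their surroundings.

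**Figure D3:**
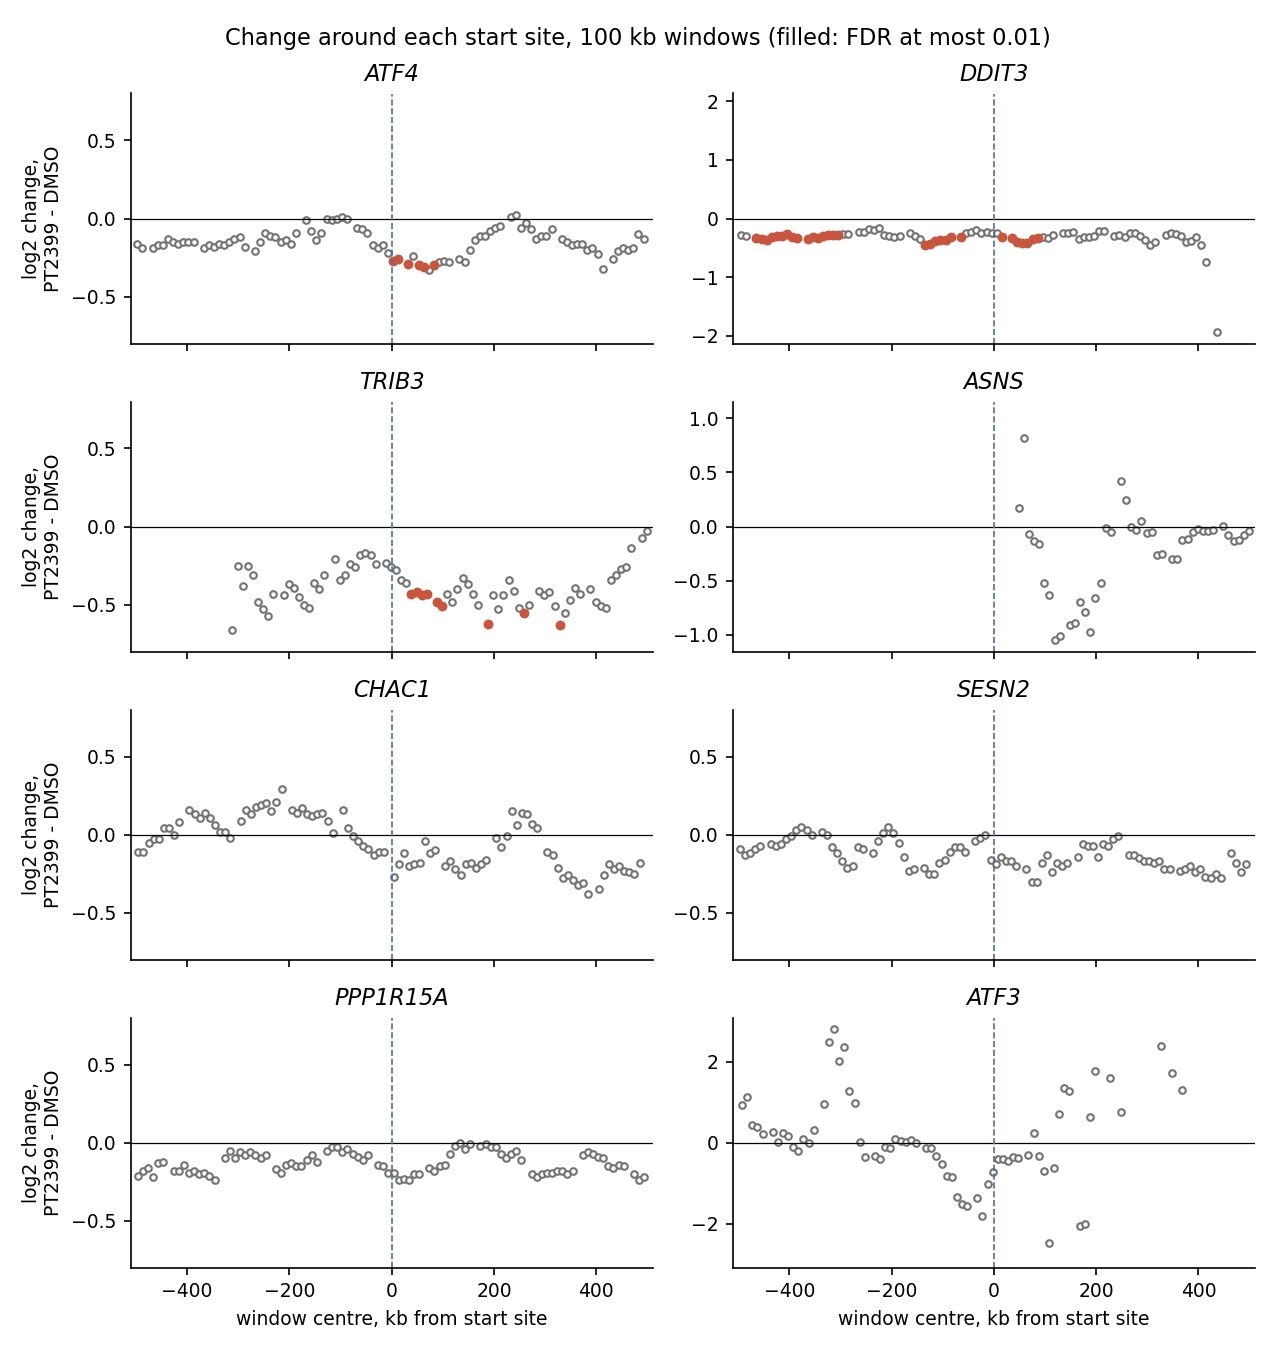
Log2 change, PT2399 minus DMSO (y axis; its range differs between panels), of measured 100 kb windows against the distance of the window centre from the start site in kb (x axis, toward higher coordinates to the right), 1 panel per gene. Filled points passed an FDR of 0.01 in the authors' deposited tables: 6 around ATF4, 30 around DDIT3, 9 around TRIB3 and 0 around the other genes. Of all measured 100 kb windows 1.55% were called lower and 0.0853% higher.

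ASNS lay at a border of SON signal, and ATF3 lay in uneven signal that fell to the floor in places. All 45 windows of 100 kb centred up to 500 kb below the ASNS start were at the floor in both treatments. On the other side 0 of 45 were at the floor in both, with median levels of 8.17 with PT2399 and 8.27 with DMSO. The start site thus fell where the signal begins. Around ATF3 the median level was 7.68 with PT2399 and 7.65 with DMSO below the start, and 5.09 with PT2399 and 3.32 with DMSO above it, where 8 of 45 windows were at the floor in both treatments. CHAC1, by contrast, had levels of 9.34 to 10.33 with PT2399 and 9.25 to 10.27 with DMSO over the whole span of 500 kb on either side.

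**Figure D4:**
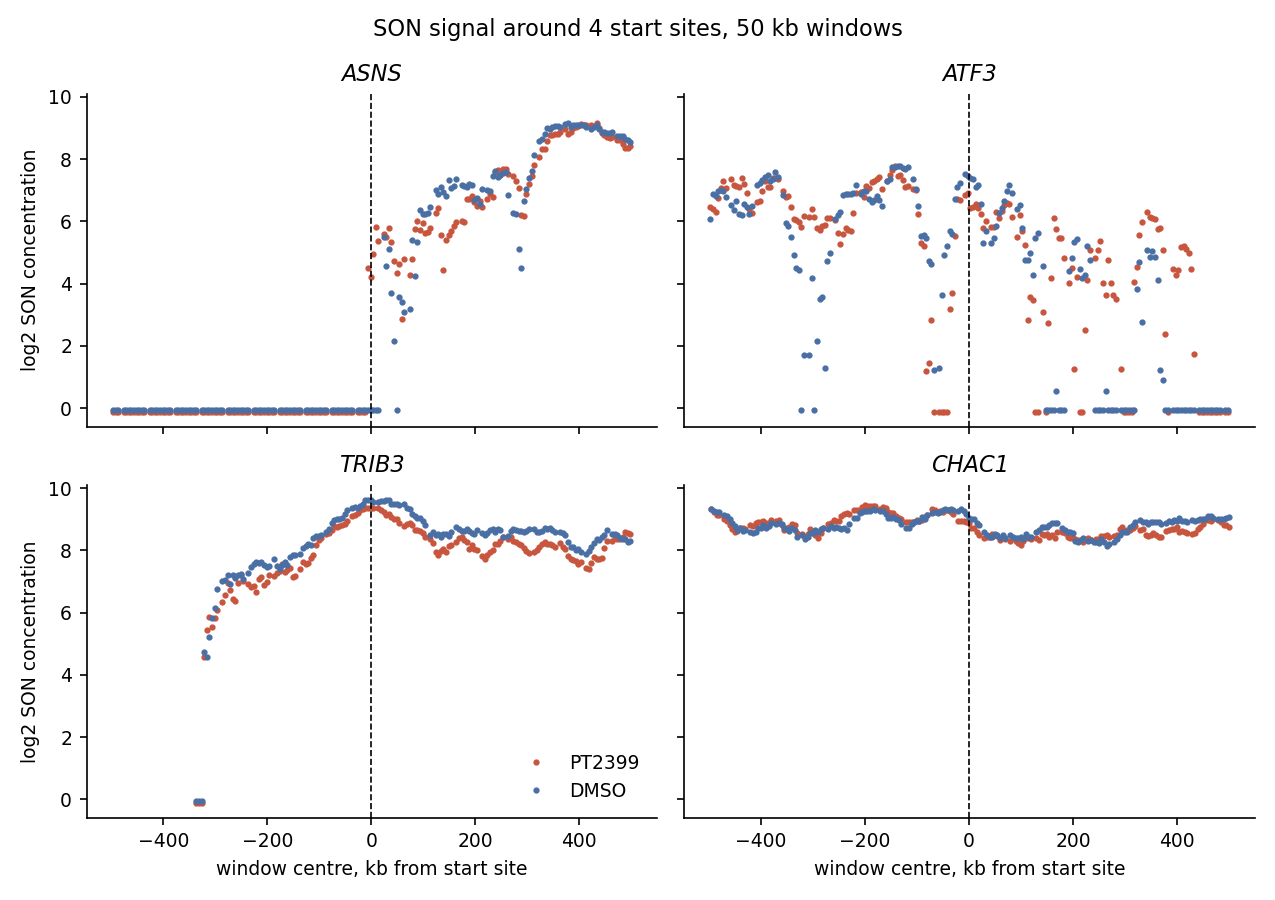
Log2 SON concentration of 50 kb windows (y axis) against the distance of the window centre from the start site in kb (x axis) for 4 genes, with PT2399 and DMSO as separate points. ASNS sits where the floor gives way to signal toward higher coordinates, ATF3 lies in uneven signal that reaches the floor in places, TRIB3 lies at a local peak, and CHAC1 lies in signal of 8.17 to 9.45 with PT2399 and 8.13 to 9.34 with DMSO that nowhere reaches the floor.

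The 5 protein-coding genes on either side of each member in RefSeq order were looked up. The authors' deposited 100 kb list holds 17 of 30 around ATF4, DDIT3 and TRIB3, and 0 of 50 around the other 5 members. It holds 4.23% of the 19979 protein-coding genes outside the members and the wider list below. At that share few of 50 would be listed, so 0 of 50 is near it. Neighbours of a called window share it, so these counts are no separate observation. Around DDIT3 the listed neighbours were INHBC, INHBE, GLI1, ARHGAP9, MBD6, DCTN2, KIF5A and PIP4K2C, and the last 3 were also in the 50 kb list. MARS1, the nearest gene on the lower side of DDIT3, was found in neither list. Of the 1023 symbols of the 100 kb list 982 matched RefSeq. Unmatched symbols count as absent, so these counts may be too low. INHBE, an inhibin subunit gene, is itself known as a target of this response. Around TRIB3 all 5 genes on the higher side were listed (RBCK1, TBC1D20, CSNK2A1, TCF15 and SRXN1) and 0 of 5 on the lower side. Around ATF4 the listed neighbours were MGAT3, MIEF1, RPS19BP1 and CACNA1I.

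A wider list of 69 genes of the response was looked up in the same lists by symbol, since hg19 positions of these genes were not used here. In the authors' deposited 100 kb list 8 were found (11.6%), against 4.23% of 19979 other protein-coding genes, among which genes at weak signal are included. Listed symbols without a RefSeq match could not be counted, so both shares and the counts by role may be too low. By role these were 4 of 18 genes of amino acid synthesis and transport, 2 of 17 stress outputs, 1 of 17 sensors and eIF2 factors, 1 of 10 tRNA synthetases and 0 of 7 transcription factors. The amino acid genes were SHMT2, which makes glycine from serine in mitochondria, and the transporters SLC7A5, SLC6A9 and SLC38A2. GCN1, which activates the amino acid sensor kinase GCN2, and YARS1, tyrosyl-tRNA synthetase, were also listed. The stress outputs were DDIT4, an inhibitor of mTORC1, and KLHL24, a ubiquitin ligase adaptor, and these 2 alone of the 69 were in the 50 kb list (2.9%, against 1.1% of other protein-coding genes). SHMT2 lies on chromosome 12, as DDIT3 does. Its distance from the called stretches around DDIT3 was not measured, so it may be no separate observation. DDIT4 is also a hypoxia-induced gene. The lists hold lower windows as deposited, before any recentring, and a list of genes at higher windows was not used here.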

How the data were processed

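SON TSA-seq libraries of 786-O cells (2 pulldowns and 2 inputs per treatment) were grouped by title. Tools listed in the submitters' processing notes are DiffBind, bedtools, Picard and Bowtie2, and the build is hg19. Not given in the sources used here are versions, roles, counting, scaling and the use of inputs. Each deposited table holds, per the file headers, log2 concentrations of every window in treatment and control, their average, and a log2 fold equal to control minus treatment within 0.01. Per the file headers, each window also has a p-value and an FDR. The authors also deposited gene lists, whose 1023 and 258 symbols were matched through RefSeq (982 and 251 matched).

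There were 9 sets of windows per size, offset by 10 kb (100 kb) or 5 kb (50 kb). Each start site was read as the middle of the kilobase given for it. The change is treatment minus control, averaged over the 9 windows of a gene. No count test applies to these values, so the authors' FDR (at most 0.01) was used. Same-level windows had a mean within 0.25 in the same set. An implied standard error is the absolute change over the normal quantile of p, for changes of at least 0.1 with p under 0.5; recentred calls took the median of 20 level bins otherwise. Recentring and same-level medians were tested on simulated data. The members and lists were chosen with earlier results of these data known. All members, and every wider-list gene or neighbour found in a deposited list, were named. Alternatives covered the threshold, the summary, the start position, the scaling and the window size. Scripts ran in Python 3.11.15 with scipy 1.17.1, pandas 2.3.3, numpy 2.4.6 and, for figures, matplotlib 3.10.9.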

Additional observations from a re-analysis of the deposited data

How the results depend on the processing

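Over the 7 measured genes the median of the mean changes was -0.21 at 100 kb and -0.22 at 50 kb. The median of the 8 mean changes, which counts ASNS despite its DMSO values at the floor, was -0.20 at either window size. At 100 kb it became -0.071 after recentring on measured windows, and -0.07 and -0.072 after recentring on windows of the same level within 0.25 and 0.5. At 50 kb it became -0.069 with either same-level band. These settings subtract the general shift by construction. Of 120 values of single genes under the alternatives, 87 moved by less than their implied standard error. These include every value with a shifted start site. They also include every value of ASNS and ATF3, whose errors at 100 kb were 2.48 and 0.56. At 100 kb every recentring moved ATF4, DDIT3, TRIB3, CHAC1, SESN2 and PPP1R15A by more than that error. The 8 lower calls at 100 kb became 22 at an FDR of 0.05, 26 at 0.1 and 2 at 0.001, and 9 when adjusted over all sets. After recentring with the implied error, a setting added after seeing the data, 0 were left. The 3 genes with a lower call became 4 at 0.05 and 4 at 0.1, with PPP1R15A added. At 0.05 PPP1R15A had 4 windows called, against 5 at ATF4, so the division of these genes depends on the threshold. Shares of all windows at these thresholds are not given here. The 3 genes became 1 at 0.001 and 0 when at least 5 windows had to be called. At 50 kb the 0 lower calls became 1 at 0.05, in 1 gene, and 3 at 0.1, in 2 genes. The 8 listed genes of the wider list at 100 kb became 2 at 50 kb. No higher call appeared under the thresholds tried. No paired analysis was possible because the tables hold 1 value per treatment and no value per library, and leaving out replicates was not run for the same reason. The start site is known to the kilobase here, and shifting it by 1 kb is among the 120 values. Depth is unknown, and weak signal limits ATF3 and ASNS.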
